A study of Rattus norvegicus with 6 samples.

Results

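The 10 genes described here encode RNA-binding proteins that act in pre-mRNA splicing, together with a kinase that regulates them. They are the serine/arginine-rich (SR) splicing factors Srsf1 to Srsf7, the cold-inducible RNA-binding proteins Cirbp and Rbm3, and the CDC-like kinase Clk1. A probe was assigned to a gene through its RefSeq mRNA accession, and all 10 genes were found among 13823 protein-coding genes with a usable named probe. Each was represented by 1 probe with 1 spot per array. Every one of these probes was well above background in all 6 scans, so all 10 were among the 10001 coding genes tested. Probe sequences were not used here, so which part of a transcript a probe reads, which spliced forms it detects and whether it also binds a related transcript were not tested.

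RNA came from H9c2, a rat line of embryonic heart myoblasts used to study heart muscle cells in culture. The control group held 3 samples of cells kept at normal oxygen. The hypoxia/reoxygenation (H/R) group held 3 samples of cells that spent 1 h without serum and glucose at 1% oxygen, 5% carbon dioxide and 94% nitrogen and then 3 h at normal oxygen. Routine culture was in medium with 4500 mg/L glucose and 10% serum; the medium of the control cells during the experiment is not given, so the effects of gas and medium cannot be told apart. The labels give 37 °C for routine culture and no temperature for the H/R steps. Both groups are of 1 cell line, and the protocol text names a mouse cortex as the RNA source, against the rat myocytes of all other labels. Muscle markers were present: 10 of 12 on the array, among them Myod1, Myog, Des and Tnnt2, were well above background in every control scan. The fibroblast and mesenchymal markers on the array, Vim, Col1a2, Thy1, Pdgfra and Tagln, were well above background in all 6 scans. The neuronal markers Rbfox3, Gad1 and Slc17a7 were not well above background in any scan, while the glial markers Gfap and Mbp were in all. A further neuronal marker was well above background in 1 control scan and in 0 H/R scans. Of the leukocyte markers, Ptprc, Itgam and Adgre1 were not well above background in any scan, Csf1r, Aif1 and Cd3e were in all 6, and Cd74 was in 5 of 6.

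SR proteins bind exonic enhancer sequences in pre-mRNA through RNA recognition motifs and recruit the spliceosome through a tail rich in arginine and serine. Phosphorylation of that tail by the SRPK and CLK kinases sets where the proteins reside in the nucleus and how active they are, and many SR protein genes limit their own output through unproductive splicing of their transcripts. Cirbp and Rbm3 are small glycine-rich RNA-binding proteins whose transcripts rise on mild cooling, and both have also been studied in low oxygen. CLK kinase activity is itself known to depend on temperature.

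The files labelled replicate 2 and replicate 3 came, within each group, from the same slide position and shared 36 spots with an uneven local background (at most 1 in every other pair of files). Their spots differed by a median log2 value of 0.05 in control and 0.06 in H/R, and those of the remaining within-group pairs by 0.19 to 0.22. This was less than the difference between arrays, so they were averaged as 2 scans of 1 array, and n is 2 arrays in each group. The series' description speaks of 3 independent experiments in each group, which these files do not bear out for replicates 2 and 3. No label links a file to its own culture, and p-values therefore rest on the variation among these arrays alone, some or all of which may be technical. Each array lay at its own slide position, and the effects of position and group cannot be told apart. With 2 arrays against 2, an exact two-sided permutation test cannot go below p = 0.333, so the tests below are those of limma, which pools the spread over all probes. Between 58.4% and 71.1% of spots were well above background per scan and 0 were saturated. The high end was 1 array: H/R replicates 2 and 3 had 71.1% and 69.4%, and the other scans had 58.4% to 61.7%. The part of this in the calls was not tested. Precision is limited by having few arrays.

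Sequence upstream of the start site is shown for the 3 genes that passed the test and for Cirbp, so that the changes can be set beside what lies in front of each gene. These are the 250 bases before the transcription start in RefSeq's promoter table (build GRCr8), 5′ to 3′ in the direction of the gene. Capitals mark 4 motifs searched on both strands. The first, ACGTG, is a form of the core bound by hypoxia-inducible factor and part of some E-boxes. A second, CCAATC, is a form of the CCAAT box bound by the factor NF-Y. Other forms, such as GCGTG for the first and CCAAT with another last base for the second, were not searched. They are therefore not in capitals and not counted. The third, TTCCGG, is a core of sites of the ETS family, and the fourth, TCCCCGCC, has been described in promoters that respond to mild cold.
Srsf1, chr10:73336248-73336497, plus strand: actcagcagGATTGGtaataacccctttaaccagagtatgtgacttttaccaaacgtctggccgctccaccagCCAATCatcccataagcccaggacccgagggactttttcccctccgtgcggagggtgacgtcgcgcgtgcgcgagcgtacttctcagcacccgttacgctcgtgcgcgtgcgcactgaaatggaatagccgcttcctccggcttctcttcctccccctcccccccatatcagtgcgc
Srsf2, chr10:102554142-102554391, minus strand: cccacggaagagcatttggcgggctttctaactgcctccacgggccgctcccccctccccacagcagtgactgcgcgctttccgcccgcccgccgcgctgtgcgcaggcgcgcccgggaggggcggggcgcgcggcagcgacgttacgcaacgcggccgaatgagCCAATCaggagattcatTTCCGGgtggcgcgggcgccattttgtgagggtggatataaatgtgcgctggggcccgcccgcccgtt
Srsf3, chr20:7093335-7093584, plus strand: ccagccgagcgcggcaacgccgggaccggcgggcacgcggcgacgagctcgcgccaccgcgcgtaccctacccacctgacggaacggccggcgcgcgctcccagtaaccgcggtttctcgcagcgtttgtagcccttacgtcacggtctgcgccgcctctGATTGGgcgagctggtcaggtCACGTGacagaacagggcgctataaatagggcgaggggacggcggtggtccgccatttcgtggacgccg
Cirbp, chr7:10189476-10189725, minus strand: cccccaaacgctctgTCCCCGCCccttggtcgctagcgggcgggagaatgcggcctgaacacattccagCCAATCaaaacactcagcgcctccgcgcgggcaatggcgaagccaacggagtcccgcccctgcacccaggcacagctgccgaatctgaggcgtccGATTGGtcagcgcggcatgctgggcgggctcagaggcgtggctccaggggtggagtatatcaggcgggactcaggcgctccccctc
In the Srsf3 sequence, ACGTG occurred on both strands as 2 overlapping matches that together spell CACGTG, 64 to 69 bases before the start. All 10 genes had an entry in the table. Of them 3 held the first motif (Srsf3, Srsf4 and Srsf6), against 16.95% of 27457 windows of the same length. CCAATC was found in 4 (Srsf1, Srsf2, Srsf3 and Cirbp) against 13.83% of windows. The ETS core was in 5 (Srsf2, Srsf4, Srsf5, Srsf7 and Rbm3) against 13.41%, and the cold motif in 2 (Cirbp and Srsf7) against 4.45%. The windows of the 10 genes were 52.0% to 77.2% G or C, beside a median of 52.0% over all windows. The shares were not adjusted for this, and its part in them was not tested. The genes with CCAATC included both those that fell and the one that rose. A match describes the letters of the window and not a bound site.

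Srsf3 was the member that rose, Srsf1 and Srsf2 fell, and the other 7 did not pass the test. Srsf3 signal was 1.72-fold higher after H/R (95% confidence interval 1.35 to 2.19), and Srsf1 and Srsf2 were at 68.4% (56.6% to 82.6%) and 76.5% (64.5% to 90.7%) of control. Of those 7, Srsf4 and Srsf7 had all H/R scans below control and Cirbp and Clk1 all above, while Srsf5, Srsf6 and Rbm3 overlapped with control. The 3 of 10 members that passed an adjusted p of 0.05 compare with 25.8% of coding genes that passed in either direction, so their share was near the background. By direction, 1 of 10 rose against 16.2% of coding genes and 2 of 10 fell against 9.62%. Over all probes, non-coding ones included, 23.7% were called, 14.8% higher and 8.87% lower. With arrays scaled to their median, 41% of called probes were higher, against 62.6% here. The 3 member calls were lost after normexp background correction (limma adjusted p of 0.315 to 0.383) and without the filter on dim probes (0.0940 to 0.158). In these bulk samples, fewer cells with a transcript and less transcript per cell cannot be told apart.

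**Figure D1:**
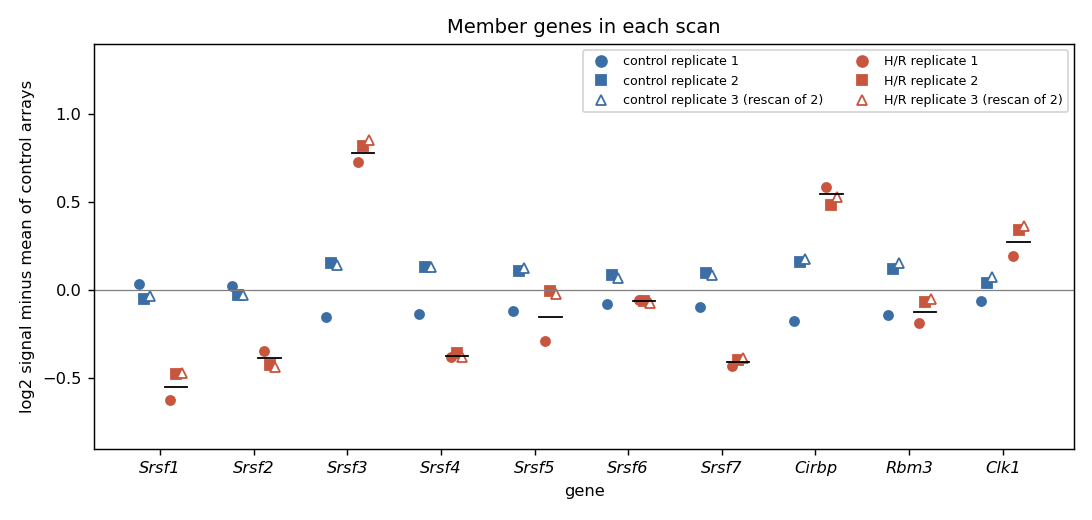
Log2 signal of the 10 genes in each scan, minus the mean of the gene's 2 control arrays; blue, control; red, H/R; open triangles, replicate 3, the second scan of the array of replicate 2; black bars, mean of the 2 H/R arrays. Srsf3, Cirbp and Clk1 lie above and Srsf1, Srsf2, Srsf4 and Srsf7 below all control scans, while Srsf5, Srsf6 and Rbm3 overlap with control.

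Values per sample are given below as the log2 of the probe's processed signal over the 75th percentile of all probes on that array, so 0 is the level of that percentile. Levels of different probes are not comparable, so the results on the 10 genes read differences of 1 probe between samples.

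Srsf1 encodes the prototype SR protein, which promotes use of nearby splice sites and shuttles between nucleus and cytoplasm. Control replicates 1 to 3 measured 1.55, 1.46 and 1.48, and H/R replicates 1 to 3 measured 0.88, 1.03 and 1.04. All H/R scans lay below all control scans, with a gap of 0.42 between the closest. Its change was -0.55 ± 0.11 on the log2 scale (limma's moderated SE, as for all changes given as ±, with 2 arrays in each group; adjusted p = 0.0251). The call was lost without any single array, with 1 array then left in a group: adjusted p was 0.0859 without control array 1, 0.0573 without control array 2, 0.123 without H/R array 1 and 0.0832 without H/R array 2, and the change lay between -0.62 and -0.47.

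Srsf2 encodes an SR protein that marks nuclear speckles, the storage sites of splicing factors. Its values were 2.47, 2.42 and 2.42 in the control scans and 2.10, 2.02 and 2.01 in the H/R scans. The groups did not overlap, and its control arrays differed by 0.05, the smallest gap among the 10 genes. The change was -0.39 ± 0.09 (limma adjusted p = 0.0451), close to the threshold. Adjusted p was 0.0509 after quantile normalization and 0.0615 in the authors' log2 table, and 0.0904 to 0.205 with any single array left out.

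Srsf3 encodes the smallest SR protein, which also serves as an adaptor for mRNA export. The control scans gave -2.71, -2.41 and -2.42 and the H/R scans -1.84, -1.75 and -1.71. Every H/R scan was above every control scan, by at least 0.57. In processed signal units the probe read 374 to 394 in control and 495 to 805 after H/R. The change was 0.78 ± 0.14 (limma adjusted p = 0.0199), and 92.3% of the coding genes tested had a lower change. It was 0.63 without control array 1 (adjusted p = 0.0516), 0.93 without control array 2 (0.0241), 0.84 without H/R array 1 (0.0784) and 0.73 without H/R array 2 (0.101), so the call was kept in 1 of these 4 fits.

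Srsf7 is the close relative of Srsf3 and carries a zinc knuckle beside its RNA recognition motif. Its scans read 1.74, 1.93 and 1.92 in control and 1.41, 1.44 and 1.45 after H/R, with no overlap. The change of -0.41 ± 0.11 did not pass (limma adjusted p = 0.0546; interval -0.69 to -0.13). It passed with quantile normalization (adjusted p = 0.0394), with median scaling (0.0303) and in the authors' log2 table (0.0484).

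Srsf4, which encodes a long-tailed SR protein, read 1.70, 1.97 and 1.97 in control and 1.46, 1.48 and 1.46 after H/R. These scans did not overlap either, but the 2 control arrays differed by 0.27, and the change of -0.37 ± 0.12 did not pass (limma adjusted p = 0.0903; interval -0.69 to -0.05). With arrays scaled to their median it was -0.50 and passed (adjusted p = 0.0482).

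Srsf5 and Srsf6, which encode the remaining members of the same SR subgroup, overlapped between the groups. Srsf5 scans were at 2.13, 2.36 and 2.38 in control and 1.96, 2.25 and 2.23 after H/R. Its change was -0.15 (interval -0.53 to 0.23, limma adjusted p = 0.487), smaller than the difference of 0.24 between its control arrays. Srsf6 scans were at 3.16, 3.32 and 3.31 in control and 3.18, 3.18 and 3.17 after H/R. Its change was -0.06 (interval -0.33 to 0.21, adjusted p = 0.696), and the interval leaves room for a fall to 79.7% or a rise to 1.15-fold.

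Of the cold-inducible pair, Cirbp, which encodes an RNA binder that moves to stress granules, read 0.58, 0.92 and 0.93 in control and 1.34, 1.24 and 1.28 after H/R. The H/R scans were all above the control scans, by at least 0.30, although the control arrays themselves differed by 0.34. The change was 0.55 ± 0.14, or 1.46-fold (interval 1.13 to 1.89), and did not pass (limma adjusted p = 0.0542). It was 0.72 and passed without control array 2 (adjusted p = 0.0341), and was 0.38 without control array 1 (0.124). With p-values adjusted over genes, after averaging a gene's probes, it passed at 0.0451.

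Rbm3, which encodes a protein that supports translation in the cold, read 4.29, 4.55 and 4.58 in control and 4.24, 4.36 and 4.38 after H/R. Its groups overlapped. The change was -0.12 (interval -0.47 to 0.23, limma adjusted p = 0.536), which spans 72.3% of control to 1.17-fold, and it was 0.02 without control array 2. The 3 coding genes whose control-centred values over the 4 arrays lay closest to those of Cirbp were Usp8, Senp7 and Slc35f6, at root mean square distances of 0.02 to 0.03 (log2), and those closest to Rbm3 were Dhps, Cbx6 and Rsph6a, at 0.01 to 0.02. These were picked as the nearest among 10001 coding genes on only 4 arrays, so their closeness is a description. Shared regulation was not tested.

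Clk1, the kinase of the group, phosphorylates the tails of SR proteins and, like its targets, is regulated by splicing of its own transcript. It read 2.28, 2.38 and 2.42 in control and 2.54, 2.69 and 2.71 after H/R, with a gap of 0.12 between the groups. The change was 0.28 ± 0.11, or 1.21-fold (interval 0.99 to 1.47), and did not pass (limma adjusted p = 0.135). With median scaling it was 0.15.

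**Figure D2:**
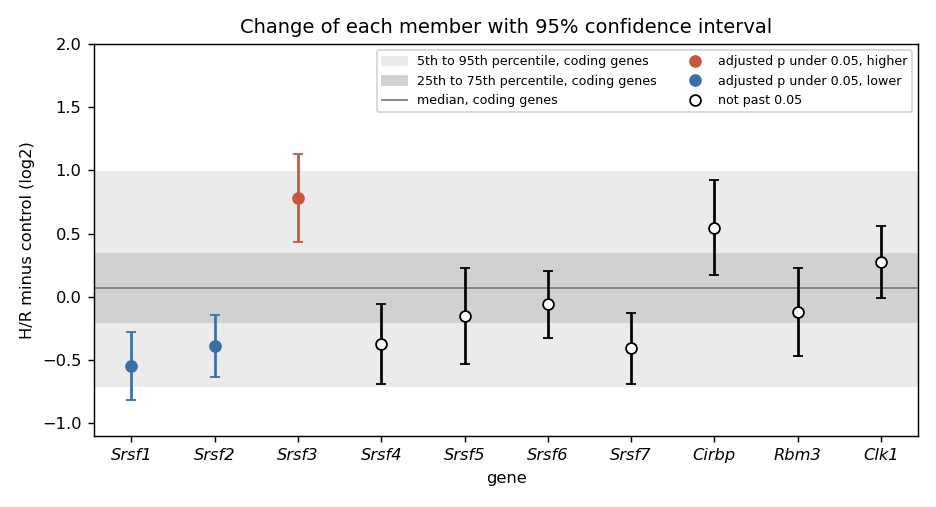
Change of each gene (H/R minus control, log2) with its 95% confidence interval from limma, n = 2 arrays per group; the grey bands give the spread of the change over 10001 coding genes. Srsf3 (red) is the member called higher and Srsf1 and Srsf2 (blue) are those called lower; all 10 values lie within the 5th to 95th percentile of coding genes, -0.71 to 0.99.

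Without regard to the test, the scans of the 2 groups did not overlap for 7 of the 10 genes, 3 higher and 4 lower, against 66.1% of coding genes (38.2% higher and 27.9% lower). The median change of the 7 SR genes was -0.37, beside 0.07 for all coding genes. Differences between arrays of 1 group were of like size to several of these changes. In control array 2, 8 of the 10 genes were higher than in control array 1, by 0.12 to 0.34, where the median coding gene differed by 0.06. For 3 genes (Srsf5, Srsf6 and Rbm3) this gap was larger than the change after H/R.

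The files came from 2 scan sessions, the first holding replicates 1 and 2 of both groups and the second replicate 3 of both. In the first alone the same 3 members passed, at adjusted p = 0.0260 (Srsf1), 0.0476 (Srsf2) and 0.0205 (Srsf3) in limma. In the second, with 1 file per group and no test, their differences were -0.44, -0.41 and 0.71.

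The ratio of 2 members within a scan is the same whichever constant an array is scaled by. The pairs given here were chosen after the values were seen, so their direction is a description. The log2 ratio of Srsf3 to its relative Srsf7 lay between -0.06 and 0.06 around its control mean in the control scans and at 1.16, 1.21 and 1.24 in the H/R scans, a 2.28-fold rise of the ratio. For Srsf3 to Srsf1 the H/R scans were at 1.35, 1.29 and 1.32 and the ratio rose 2.51-fold. The ratio of Cirbp to Rbm3 was within -0.03 to 0.04 of its mean in control and at 0.77, 0.55 and 0.58 after H/R, 1.59-fold higher. The ratio of Srsf2 to Srsf1 was 0.16 higher on the log2 scale, with a gap of 0.01 between the groups. That difference came mainly from H/R replicate 1, at 0.28, against 0.05 and 0.03 in replicates 2 and 3. The ratios were not tested, and they do not show that either gene of a pair stayed constant.

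**Figure D3:**
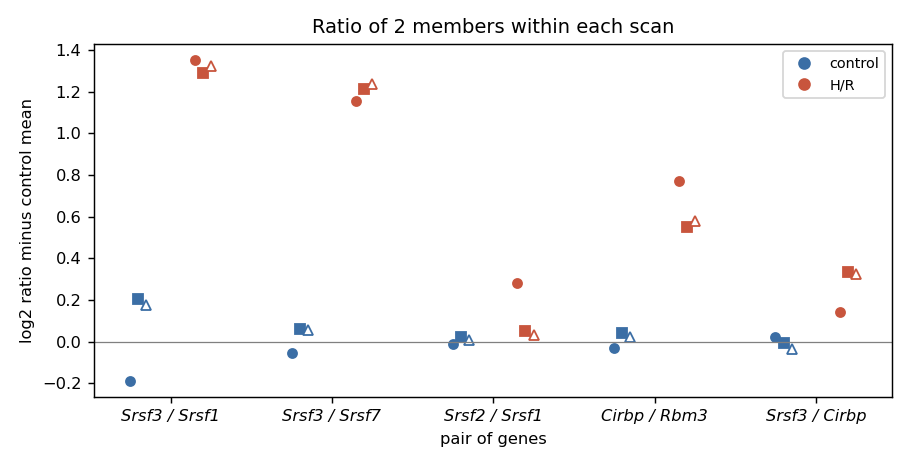
Log2 ratio of 2 members in each scan, minus the mean of the control arrays; blue, control; red, H/R; circles, squares and open triangles are replicates 1, 2 and 3. The ratios of Srsf3 to Srsf1 and to Srsf7 are above 1 in every H/R scan, and those of Cirbp to Rbm3 are between 0.55 and 0.77.

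Other genes of RNA processing were read from the same fit in 7 lists, whose counts stand beside 16.2% of all coding genes called higher and 9.62% called lower. The list of further SR and SR-like genes had 12 tested, of which 2 fell and 0 rose, and its median change was -0.20. Luc7l3, related to a component of the U1 particle, changed by -0.53 ± 0.09 (limma adjusted p = 0.0206), and Pnn, a speckle protein, by -0.43 ± 0.09 (0.0337). In the group of SR kinases, phosphatases and carriers 1 of 16 rose and 0 fell, and the median change was 0.00. The one that rose was Dyrk1b, a kinase of the DYRK family, which is related to the CLKs, by 1.48 ± 0.19 (adjusted p = 0.00947).

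Among hnRNPs, which often oppose SR proteins at exons, 0 of 22 rose (16.2% of coding genes) and 5 fell (9.62%), and the median change was -0.17. Hnrnpk changed by -0.65 ± 0.11 (limma adjusted p = 0.0174), and the pyrimidine-tract binders Ptbp3 and Ptbp1 by -0.59 ± 0.10 (0.0209) and -0.51 ± 0.10 (0.0258). Hnrnpf, read from the brightest of its 4 probes, changed by -0.37 ± 0.09 (limma adjusted p = 0.0459). Its other probes are not given here. Hnrnph2 had the widest spread: its scans were at -0.47, -1.39 and -1.38 in control and -4.23, -2.59 and -2.63 after H/R, and its change of -2.49 ± 0.60 (0.0434) was -1.68 without H/R array 1 and -3.30 without H/R array 2. Of 26 core spliceosome genes 0 rose and 1 fell, and the median change was -0.16. That gene was Snrpf, which encodes a protein of the Sm ring of spliceosomal particles (-0.88 ± 0.09, adjusted p = 0.00616).

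In the RBM family 2 of 17 rose (16.2% of coding genes) and 3 fell (9.62%), and the median change was -0.05. The splicing regulators Rbm5 (0.40 ± 0.10, limma adjusted p = 0.0419) and Rbm4b (0.38 ± 0.09, 0.0433) rose, and Rbm27 (-0.94 ± 0.13, 0.0125), Rbm18 (-0.42 ± 0.10, 0.0386) and Rbms1 (-0.57 ± 0.14, 0.0474) fell. Of 8 factors of nonsense-mediated decay, the pathway that removes unproductively spliced transcripts, 0 rose and 1 fell, and the median change was 0.04. The one that fell was Smg9, a subunit of its kinase complex (-0.48 ± 0.12, 0.0494). The last list was labelled tissue-linked splicing regulators, but the tissue range of its genes was not tested. In it 1 of 14 rose (16.2% of coding genes) and 5 fell (9.62%), and the median change was -0.02. Tia1, a stress granule protein, rose by 0.73 ± 0.11 (adjusted p = 0.0132), while Mbnl3 (-0.65 ± 0.09), Rbfox1 (-0.57 ± 0.10), Celf1 (-0.87 ± 0.15), Qki (-0.73 ± 0.13) and Elavl1 (-0.46 ± 0.09) fell at adjusted p from 0.0123 to 0.0259. Of these 21 genes, 19 were also called with median scaling and 17 with quantile normalization, all in the same direction, and 1 to 8 with a single array left out. Snrpf was called in all 4 of those fits. After normexp correction 0 of the 21 were called in limma, and 18 kept their sign. Without the filter on dim probes 0 of the 21 were called as well. Dropping the filter leaves each change as it was, so no sign could turn there.

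**Figure D4:**
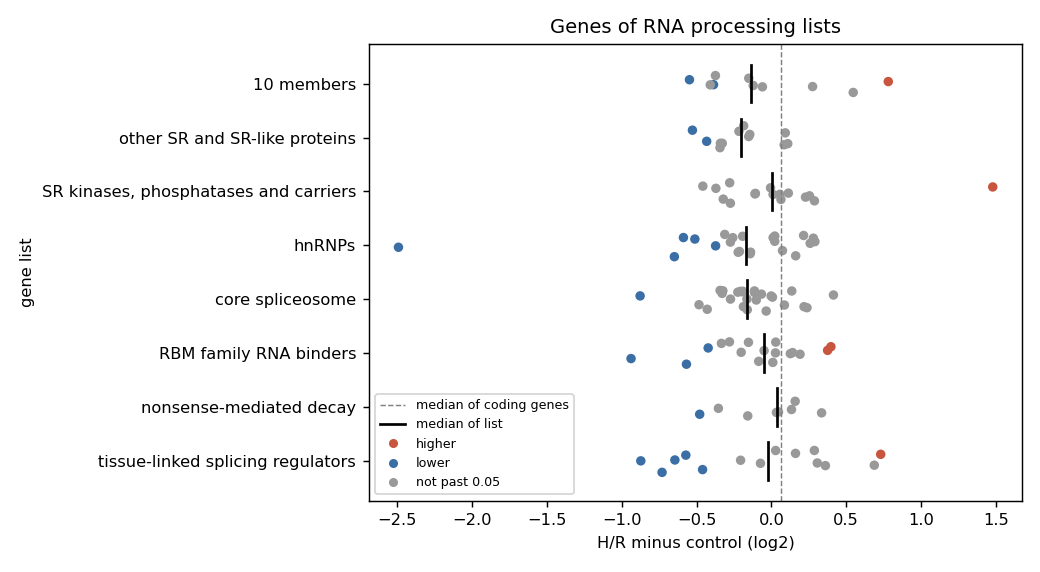
Change (H/R minus control, log2) of each tested gene in the 10 members and the 7 lists; red and blue, called higher and lower at an adjusted p under 0.05; black bars, list medians; dashed line, median of coding genes at 0.07. Apart from Dyrk1b at 1.48 and Hnrnph2 at -2.49, the genes lie between -0.94 and 0.78.

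Of 11 muscle markers tested, Tnnt2 rose by 1.13 and Myh3 by 0.78, and 2 fell, Myod1 by 1.48 and Cav3 by 0.50 on the log2 scale (limma). The endothelial receptor gene Tek rose by 1.11. Chrna1 of the muscle list (1.17) and Cd74 of the leukocyte list (1.52) also passed, but they entered the test only through the H/R scans, in which they are high, being well above background in 0 and 2 of the 3 control scans. Sums over a marker list are led by its brightest probes and include dim ones, so each is compared only with itself between samples. The summed signal of 12 muscle markers, in multiples of the 75th percentile, was 15.8 to 17.5 in control and 15.9 to 18.2 after H/R, and that of 5 fibroblast markers 70.1 to 87.6 and 89.7 to 89.9. For 8 leukocyte markers it was 0.468 to 0.480 and 0.550 to 0.580, for 3 endothelial markers 0.0506 to 0.0549 and 0.0963 to 0.116 (of these Pecam1 and Cdh5 were not well above background in any scan), and for 6 neuronal and glial markers 0.150 to 0.168 and 0.167 to 0.171. Of the 5 lists, the muscle and neuronal sums overlapped between the groups. Their part in the changes above was not tested.

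**Figure D5:**
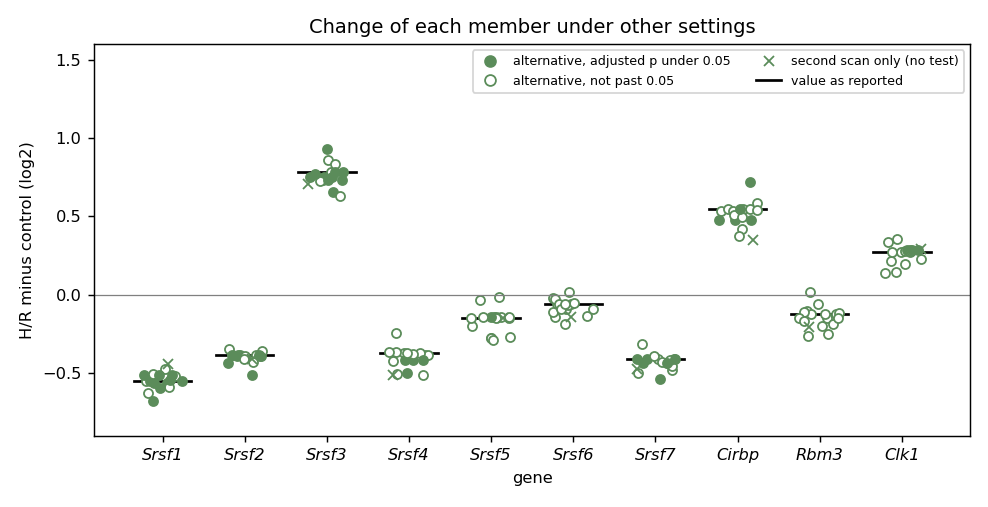
Change of each gene under 17 other settings (green; filled where the adjusted p was under 0.05; a cross is the second scan alone, with no test) beside the reported value (black bar). Srsf1, Srsf2, Srsf4, Srsf5 and Srsf7 are below 0 and Srsf3, Cirbp and Clk1 above 0 in all 17. Srsf6 and Rbm3 each turn sign in 1, both at 0.02. The settings reuse the same arrays and are not independent. Keeping dim probes, a replicate block on averaged arrays and averaging a gene's probes return the reported change, so no sign could turn there.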

How the data were processed

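RNA of 3 control and 3 H/R samples of H9c2 cells was hybridised to 1-colour (Cy3) Agilent arrays after removal of rRNA and random-primed labelling, per the labels' protocols. The scanner files deposited by the authors give an intensity for each spot, made with Agilent Feature Extraction 11.0.1.1 (per the file headers), already background-corrected on each array but on no common scale. Their 0 or 1 flags, also deposited, are another kind of value and mark outlier spots and spots well above background. The authors' deposited log2 table of 16841 probes followed the log2 scanner values across probes (r from 0.9998 to 0.9999); its column medians were 9.18 to 9.19, its genes are not centred, and no source used here gives its normalization.

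After control spots and outliers were removed, spots were averaged per probe as log2 values and each array's 75th percentile over probes was subtracted. Usable in every file were 24578 of 24684 probes. A probe entered the test if all 3 scans of control or of H/R were well above background, which left 15899. Replicates 2 and 3 of a group were averaged. limma 3.58.1 (R 4.3.3; residual degrees of freedom 2, prior 2.86) compared H/R with control, two-sided, Benjamini-Hochberg adjusted over all probes, at a threshold of 0.05; the fit was tested on simulated data. A gene is its probe of highest mean signal. Symbols came from a GRCr8 table for 14274 of 15323 coding probes. Reading and drawing used Python 3.11.15, pandas 2.3.3 and matplotlib 3.10.9.

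The members, lists and tests were chosen with earlier results of these data known. Named genes are all members, the called genes of each list (the 3 of smallest adjusted p in each direction, or all where there are 5 or fewer), the markers and the 3 nearest genes of Cirbp and Rbm3. Alternatives changed scaling, background correction (normexp with offset 50, on median spot signals), the filter, the source table, the treatment of replicates and scans, and the probe per gene. Protein sequences were not analysed here. Of the marker lists, 1 gene is not reported here.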

Additional observations from a re-analysis of the deposited data

How the results depend on the processing

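Of the members' values under 17 other settings, those of the second scan alone had no test and were compared by sign only. With them included, 128 kept sign and, where tested, call, while 20 lost a call, 20 gained one and 2 turned sign. Both turns were without control array 2: Srsf6 (0.020) and Rbm3 (0.020). Against 3769 probes called, 1 member higher and 2 lower as reported, the counts moved as follows. Normexp correction shifted the median probe from 0.07 to 0.33, and limma then called 0 probes and 0 members, with 2044 probes and 4 members at p under 0.05 before adjustment. With dim probes kept, 24578 were tested, and 594 of them and 0 members passed (5 members at p under 0.05 before adjustment). Median scaling, which set that median to -0.06, called 4 members lower, and 41% of its called probes were higher, against 62.6% as reported. With a gene's probes averaged and the adjustment made over genes only, 2 members were called higher and 3 lower. Each member has 1 probe, so averaging left the members' changes as reported. Keeping dim probes and a replicate block on averaged arrays left them as reported too, so only the call could move there. Leaving out 1 array, which leaves 1 in its group and takes its spread from the other group, called 1008 (H/R array 2), 1091 (H/R array 1), 2040 (control array 1) and 2702 (control array 2) probes, 0 to 2 members higher and 0 lower. Taking 6 scans as separate arrays called 8309 probes, 3 members higher and 4 lower, and with the scan as a block 7423, 3 and 4; both count the scans of 1 array as separate. The replicate numbers give only 2 pairs, and deviations of same-numbered arrays correlated at r = 0.15 across probes. The opposite pairing gives -0.15 by construction, so this value cannot decide whether the arrays are paired. In the reported fit they were not taken as pairs. With a replicate block 1 member was called lower, Srsf2 being lost at adjusted p = 0.0569, and with 6 scans and that block 8426 probes, 3 members higher and 5 lower. The 75th percentile over spots and the first scan alone, both chosen after seeing the data like the scan block, kept both member counts. Across lists, 19 of 21 calls were kept with median scaling; there the falls called were 5 of SR-like genes, 3 of SR kinases and carriers, 4 of the core spliceosome and 2 of nonsense-mediated decay, and 0 RBM genes rose. With quantile normalization 3 hnRNPs and 0 decay factors fell. Where no reason is given, the cause was not tested.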
